A study of Arabidopsis thaliana with 2 samples.

Results

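The SAUR genes (SMALL AUXIN UP RNA) of Arabidopsis were taken from an RNA-seq comparison of the *35S:SsCBF1-11* line with its wild type Col-0. A gene was counted as a member when its description in the deposited table contained "SAUR" or "small auxin up" in any case. This rule found 79 of 33602 rows. Of these, 78 carry a SAUR number, *SAUR1* to *SAUR78*. The remaining row, *AT5G34852*, is a maturase pseudogene whose description only names the plant genus Saururus. It had 0 reads in both libraries and is left out of all counts that follow.

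The *35S:SsCBF1-11* library came from 1 transgenic line, in which SsCBF1, a CBF transcription factor gene of the wild nightshade Solanum lycopersicoides, is driven by the constitutive 35S promoter of cauliflower mosaic virus. The Col-0 library came from untransformed plants of the same accession. For each genotype, RNA was isolated from the pooled aerial parts of 20 unstressed plants at 4 weeks, kept at 22°C under days of 16 h light and 8 h dark. There was 1 library per genotype, so no result has a replicate check, and every interval and p-value covers the counting of reads only. The deposited counts summed over the gene models to 6669454 reads in *35S:SsCBF1-11* and to 9120358 reads in Col-0. These sums are the library totals used here, and they leave out reads not assigned to a gene model. A count of 0 thus allows up to 0.450 RPM (reads per 1000000 reads of the library total) in *35S:SsCBF1-11* and up to 0.329 in Col-0 (3 reads). The table lists Arabidopsis gene models, so the transgene itself has no row to check the label by.

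SAUR genes are the largest family of early auxin response genes. Auxin bound by TIR1/AFB receptors triggers the breakdown of Aux/IAA repressors, which frees ARF transcription factors to switch on target genes within minutes, and many SAUR genes are among these targets. Several SAUR proteins bind and inhibit type 2C protein phosphatases of clade D. These phosphatases otherwise switch off the AHA proton pumps of the plasma membrane, so that SAUR proteins keep the pumps active, the cell wall acidic and the cell able to expand. CBF proteins bind the C-repeat (CRT) element, with the core CCGAC, in promoters of cold-regulated genes. In the RefSeq annotation of TAIR10.1 the 78 genes encode small proteins of 86 to 189 amino acids, with a median of 120, against 342 over 27444 nuclear protein-coding genes. The coding sequence lies in 1 exon in 74 of the 78 genes (94.9%), against 23.2% of those nuclear genes.

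As a family the SAUR transcripts were nearly as abundant in *35S:SsCBF1-11* as in Col-0. Summed over the 78 genes there were 3356 reads in *35S:SsCBF1-11* and 5109 in Col-0, or 503 and 560 RPM. The ratio of *35S:SsCBF1-11* over Col-0 was 0.898, with an exact (Clopper-Pearson) 95% interval of 0.860 to 0.938, a 1.11-fold lower sum. Without *SAUR78*, the member with the most reads, it was 0.914 (0.871 to 0.960). Over the 47 members with at least 10 reads in both libraries together, the median log2 ratio with 0.5 reads added was -0.07, and over the 18443 genes with as many reads it was also -0.07. The middle of the SAUR distribution therefore lay where that of all genes lay. Its quartiles were -0.43 and 0.09, against -0.34 and 0.16 for all genes.

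No SAUR gene passed the test. In a two-sided exact binomial test of each gene's reads against the library totals, with Benjamini-Hochberg adjustment over the 22319 genes with reads, calls needed both an adjusted p below 0.001 and more than a 2-fold difference. Under this rule 0 SAUR genes were called higher in *35S:SsCBF1-11*, where the background was 0.533% of genes tested (119), and 0 were called lower, where it was 0.838% (187). With DESeq2's size factors in place of the library totals, 136 genes were called higher and 141 lower, again with 0 SAUR genes. At an unadjusted p under 0.05 in the same test there were 14 SAUR genes of the 65 with reads (21.5%), against 21.2% of all genes. edgeR's exact test with an assumed spread between pools also called 0. Reads were few for this family, with a median of 25 per member with reads against 109 per gene with reads. The shares at an unadjusted p under 0.05 were not matched for reads, so they do not place the family at the background. A member absent from *35S:SsCBF1-11* needed at least 18 reads in Col-0 to be called, and a 2.5-fold lower level needed 98 reads in both libraries together, which only 16 members reached. A 4-fold lower level needed 48 reads, which 27 members had. For members with fewer reads than these, differences of these sizes could not be detected at this depth.

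**Figure D1:**
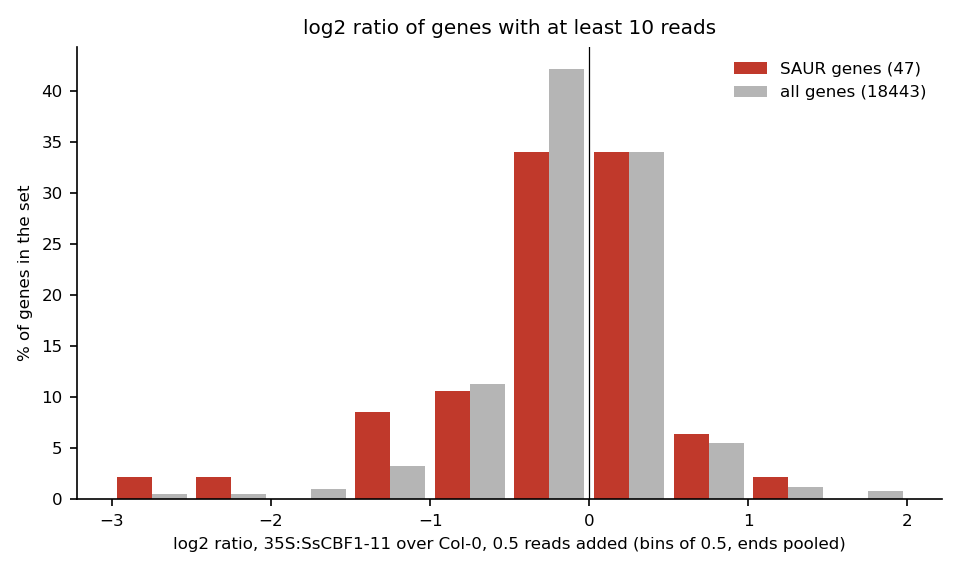
Distribution of the log2 ratio of 35S:SsCBF1-11 over Col-0, with 0.5 reads added, for the 47 SAUR genes (red bars) and all 18443 genes (grey bars) that have at least 10 reads in both libraries together. The horizontal axis gives the log2 ratio in bins of 0.5, with the end bins pooled, and the vertical axis the percentage of each set; both sets have a median of -0.07, and 6 SAUR genes lie below -1 against 1 above 1.

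A second and weaker rule asked whether the whole 95% counting interval of a gene's ratio lay on one side of 1. The interval lay below 1 for 10 of the 65 members with reads (15.4%), against a background of 13.0% of genes, and above 1 for 3 members (4.62%), against 7.38%. With edgeR's TMM scaling the shares were 13.8% and 4.62% of members, against 9.89% and 10.1% of genes, so the distance from the background moved with the scaling. These shares were not matched for reads. The 10 members with an interval below 1 were *SAUR13*, *SAUR32*, *SAUR33*, *SAUR36*, *SAUR49*, *SAUR50*, *SAUR54*, *SAUR59*, *SAUR71* and *SAUR78*, and the 3 with one above 1 were *SAUR6*, *SAUR15* and *SAUR64*. Of the 47 members with at least 10 reads, 29 had a ratio below 1 (61.7%; background 59.2%). A difference over 2-fold, with 0.5 reads added, was seen in 6 members on the lower side (12.8%; background 5.14%) and in 1 on the higher side (background 1.89%). All 7 had between 10 and 99 reads. In that range there were 31 members. Of the 31, 6 were over 2-fold lower, a larger share than the 11.4% (780) of the 6837 genes in the range. A set of 6 members is too small to set the family apart from those genes. The count also hangs on the scaling. *SAUR36* passed 2-fold narrowly, at a log2 ratio of -1.06, and TMM adds 0.067 to every log2 ratio. Over 2-fold higher there was 1 member, against 3.96% (271) of those genes. None of the 16 members with at least 100 reads differed by more than 2-fold, and their ratios ran between 0.624 and 1.26.

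The ranking of the family was much the same in both libraries. Levels between genes are given in RPKM, which scales the reads by transcript length and library total. *SAUR78*, whose protein interacts with an ethylene receptor, stood highest, at 127 RPKM in *35S:SsCBF1-11* and 152 RPKM in Col-0. *SAUR16* followed with 101 RPKM in *35S:SsCBF1-11* and 105 RPKM in Col-0, and *SAUR14* with 97.1 and 95.3 RPKM. *SAUR14* and *SAUR16*, with *SAUR50*, are known as SAUR genes that light induces in opening cotyledons. *SAUR6* had 65.5 RPKM in *35S:SsCBF1-11* and 51.8 RPKM in Col-0, and *SAUR50* had 42.6 and 64.0 RPKM, so that these 2 exchanged places between the libraries. The 5 members with the most reads held 60.3% of all SAUR reads in *35S:SsCBF1-11* and 58.8% in Col-0. Of the 10 members highest in RPKM in *35S:SsCBF1-11*, 9 were also among the 10 highest in Col-0, with *SAUR21* in one list and *SAUR20* in the other. Across the 52 members with reads in both libraries, RPKM values had a Spearman rho of 0.90, given as a description only, since the points share their libraries and gene lengths.

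**Figure D2:**
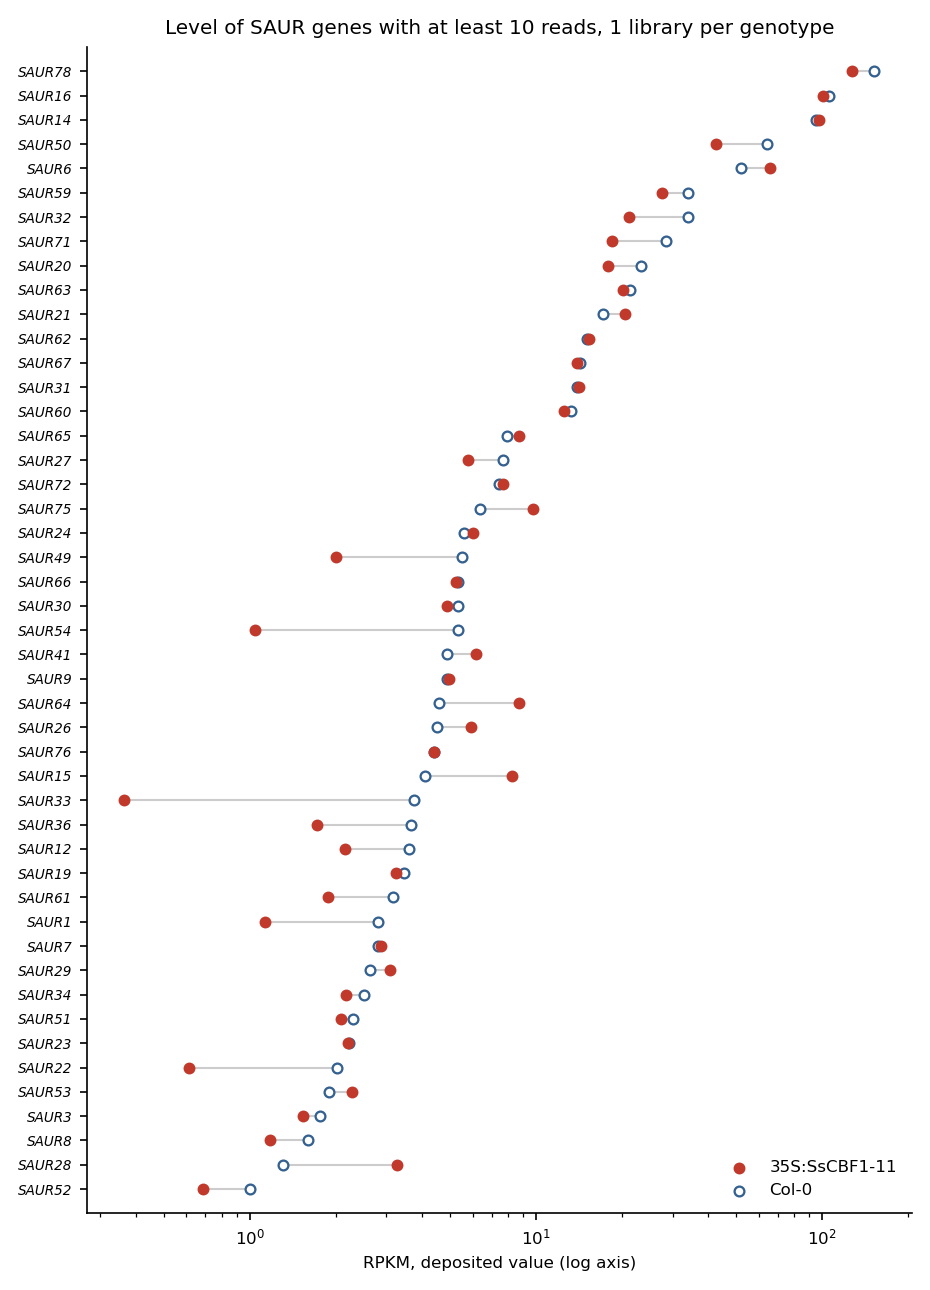
Level of the 47 SAUR genes with at least 10 reads, in RPKM on a log axis, in 35S:SsCBF1-11 (filled red points) and Col-0 (open blue points), ordered by the Col-0 value; each point is 1 library. SAUR78, SAUR16 and SAUR14 lead in both libraries, and the widest gaps lie among genes with a low level, such as SAUR33 and SAUR54.

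At the other end, 30 members were below 1 RPKM in both libraries and 13 had no read in either: *SAUR2*, *SAUR11*, *SAUR18*, *SAUR25*, *SAUR37*, *SAUR39*, *SAUR40*, *SAUR43*, *SAUR44*, *SAUR46*, *SAUR57*, *SAUR68* and *SAUR70*. Another 18 members had 1 to 9 reads in both libraries together. Reads were found for 57 members in *35S:SsCBF1-11* and for 60 in Col-0. Of the 8 members at 0 in *35S:SsCBF1-11* alone, only *SAUR13* with 9 reads and *SAUR69* with 6 reads had more than 3 in Col-0, and the 5 at 0 in Col-0 alone had at most 2 reads in *35S:SsCBF1-11*. *SAUR10*, which in Arabidopsis is repressed by the MADS-domain factor FRUITFULL, had 0 reads in *35S:SsCBF1-11* and 3 in Col-0, too few to compare.

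*SAUR54* (*AT1G19830*, chr1:6852116-6852945, plus strand) passed the fold threshold and narrowly missed that of the adjusted p. It had 5 reads in *35S:SsCBF1-11* and 35 reads in Col-0, or 1.04 and 5.34 RPKM. Its level was 5.12-fold lower in *35S:SsCBF1-11*, a ratio of 0.195 (0.0597 to 0.501), and its adjusted p of 0.0013 in the exact binomial test lay just above 0.001. The 1000 bases upstream of the annotated gene start held 1 auxin response element (AuxRE, TGTCTC) and 1 CRT core (CCGAC). They are shown because they are the letters bound by ARF proteins and by CBF proteins, printed in the direction of the gene from TAIR10.1 with the element in capitals. In the AuxRE line the capitals read GAGACA, since the element is on the strand opposite to the gene.
SAUR54 AuxRE, chr1:6851633-6851662, plus strand: tcttcatatatcGAGACAaacacatcttac
SAUR54 CRT core, chr1:6851193-6851221, plus strand: tgcaaatacattCCGACaatatataatca

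*SAUR49* and *SAUR50* are neighbours on chromosome 4, and both had an interval below 1. *SAUR49* (*AT4G34750*), whose product promotes leaf senescence, had 13 reads in *35S:SsCBF1-11* and 49 in Col-0, a 2.76-fold lower level with a ratio of 0.363 (0.181 to 0.679). Its adjusted p was 0.0086 in the exact binomial test. *SAUR50* (*AT4G34760*) had 198 reads in *35S:SsCBF1-11* and 407 in Col-0, a ratio of 0.665 (0.558 to 0.790). Its adjusted p of 4.23e-05 in the exact binomial test passed its threshold, but the difference of 1.503-fold did not reach 2-fold. *SAUR49* held 3 CRT cores upstream, the most of any member together with *SAUR17*, and *SAUR50* held 1. The *SAUR49* cores lay 266, 286 and 868 bases before the gene start, the nearer pair on the opposite strand as GTCGG, and the *SAUR50* core lay 802 bases before it, also as GTCGG. The farthest *SAUR49* core lies inside the neighbouring gene AT4G34740.
SAUR49 CRT core, chr4:16576898-16576926, plus strand: gatacaaagcggGTCGGgcgcacacaatt
SAUR49 CRT core, chr4:16576296-16576324, plus strand: tcaccgtagattCCGACaactccacactc
SAUR50 CRT core, chr4:16583865-16583893, minus strand: cgtatatcaaacGTCGGcagcattgtact

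*SAUR32* (*AT2G46690*), known for its part in the apical hook of dark-grown seedlings, had 104 reads in *35S:SsCBF1-11* and 228 in Col-0. The ratio was 0.624 (0.490 to 0.790), 1.60-fold lower, with an adjusted p of 8.57e-04 in the exact binomial test, so that here too only the fold fell short. *SAUR71* (*AT1G56150*), a member of the *SAUR41* subfamily that acts in cell expansion, had 68 reads in *35S:SsCBF1-11* and 144 in Col-0, a ratio of 0.646 (0.477 to 0.867). The intervals of its measured relatives in that subfamily included 1. *SAUR41* had 36 reads in *35S:SsCBF1-11* and 39 in Col-0 (1.26, 0.780 to 2.04), *SAUR72* had 49 and 65 (1.03, 0.697 to 1.52), and *SAUR40* had none. *SAUR59* had 152 reads in *35S:SsCBF1-11* and 257 in Col-0, a ratio of 0.809 whose interval ended at 0.992. *SAUR78*, the most abundant member, had 609 reads in *35S:SsCBF1-11* and 1000 in Col-0, a 1.20-fold lower level (0.833, 0.752 to 0.922) with an adjusted p of 0.0051 in the exact binomial test. Its relative *SAUR76* had 19 reads in *35S:SsCBF1-11* and 26 in Col-0 (0.999, 0.523 to 1.88).

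Among low members, *SAUR33* had 1 read in *35S:SsCBF1-11* and 14 in Col-0, a 10.2-fold lower level whose ratio of 0.0977 ran from 0.0023 to 0.642. *SAUR36* (*AT2G45210*), an auxin-induced gene that promotes leaf senescence, had 13 reads in *35S:SsCBF1-11* and 38 in Col-0, 2.14-fold lower (0.468, 0.229 to 0.898), with an adjusted p of 0.105 in the exact binomial test. *SAUR13* had 0 reads in *35S:SsCBF1-11* and 9 in Col-0. The interval of its ratio ran from 0 to 0.693, or at least 1.44-fold lower. It overlaps AT4G38820 on the opposite strand, and the strand setting of the counting is not given in the sources used here, so its 9 reads may belong to either gene. Over a list of 8 leaf senescence genes, the summed reads were 829 in *35S:SsCBF1-11* and 1146 in Col-0, a ratio of 0.989 (0.904 to 1.08). None of that list was called in either direction, and *SAG12*, the classic late marker, had 0 reads in both libraries. Members of that list lay on both sides of 1. *NAP*, a senescence regulator, had 135 reads in *35S:SsCBF1-11* and 114 in Col-0 (1.62, 1.25 to 2.097), and *SAG13* had 236 and 434 (0.744, 0.632 to 0.873). The part of leaf senescence in the counts of *SAUR36* and *SAUR49* was not tested.

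On the higher side, *SAUR15* (*AT4G38850*), first described as the auxin-inducible gene SAUR-AC1, had 28 reads in *35S:SsCBF1-11* and 19 in Col-0. The ratio was 2.02 (1.09 to 3.82), with an adjusted p of 0.116 in the exact binomial test. Upstream of *SAUR15* there were 1 AuxRE and 1 CRT core, both on the strand opposite to the gene, and the AuxRE, 87 bases before the gene start, was the nearest to its gene of those printed here. *SAUR15* and *SAUR14* point away from each other, and this AuxRE was also counted as upstream of *SAUR14*, on the strand of that gene. The CRT core lies inside *SAUR14*.
SAUR15 AuxRE, chr4:18125953-18125982, plus strand: tgtgatgtctttGAGACAaataagccccaa
SAUR15 CRT core, chr4:18125410-18125438, plus strand: acagtttggcttGTCGGagaatctgcttc

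*SAUR64* had 32 reads in *35S:SsCBF1-11* and 23 in Col-0 (1.90, 1.08 to 3.405). *SAUR6* had 306 reads in *35S:SsCBF1-11* and 331 in Col-0 (1.26, 1.08 to 1.48), with an adjusted p of 0.032 in the exact binomial test. *SAUR6* overlaps *SAUR7* on the same strand, so reads from the shared stretch could be counted for either, and *SAUR64* and *SAUR63* overlap AT1G29435 on the opposite strand. In all, 11 members overlap another annotated gene, and the strand of their reads cannot be told from the deposited counts. *SAUR28* had the highest ratio of the 47, with 11 reads in *35S:SsCBF1-11* and 6 in Col-0 (2.51), but its interval of 0.850 to 8.26 included 1.

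**Figure D3:**
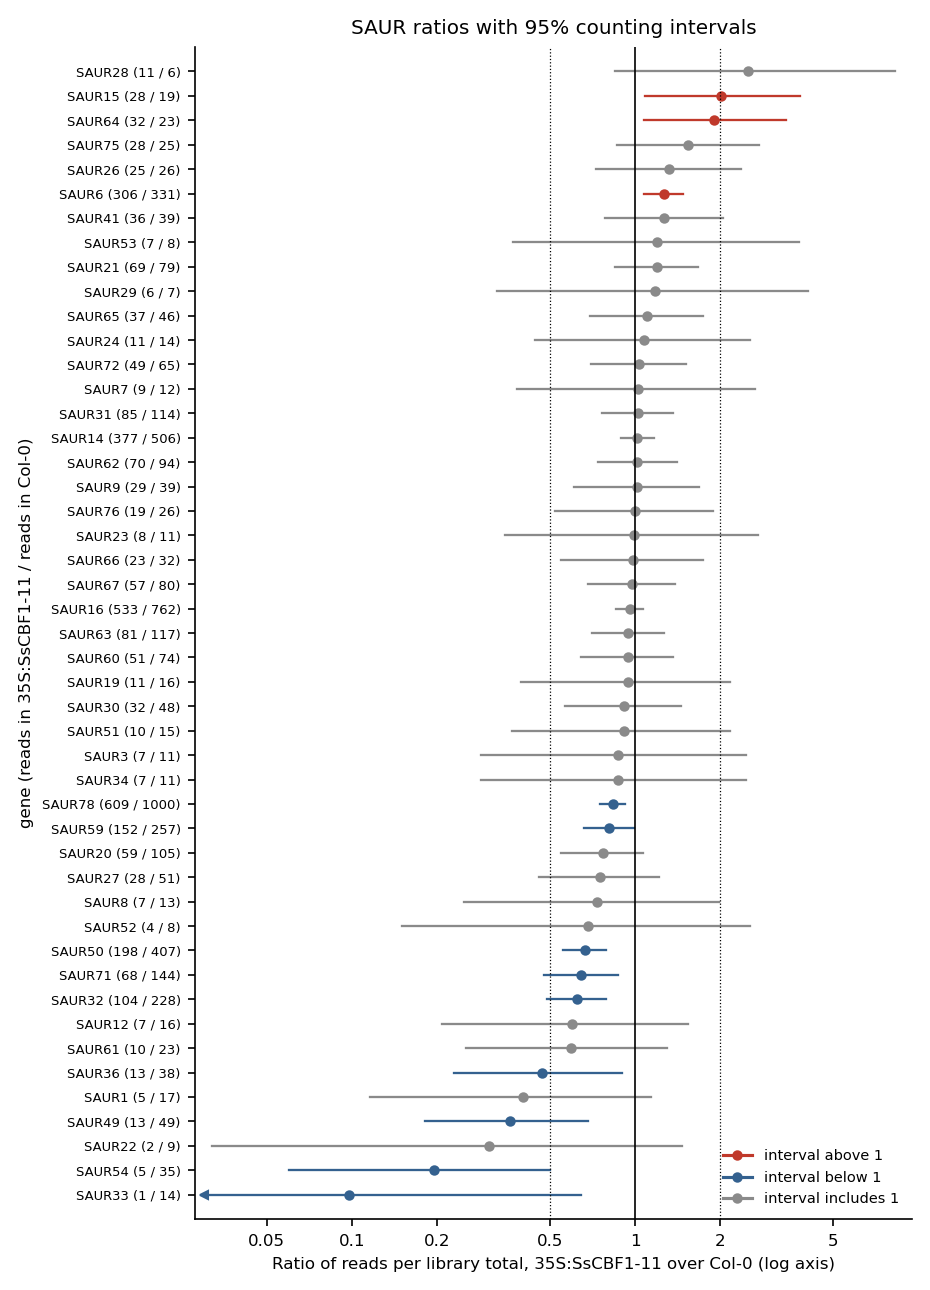
Ratio of reads per library total, 35S:SsCBF1-11 over Col-0, for the 47 SAUR genes with at least 10 reads, on a log axis with 95% exact counting intervals; red marks an interval above 1, blue one below 1 and grey one that includes 1, dotted lines mark 2-fold, and the reads of each gene stand beside its name. SAUR33 (0.0977) and SAUR54 (0.195) lie lowest, and abundant genes such as SAUR16 (0.957) and SAUR14 (1.02) lie near 1 with narrow intervals.

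The elements shown also stood upstream of members whose interval included 1. An AuxRE (TGTCTC, either strand) stood within 1000 bases upstream of 36 of the 78 members (46.2%), against 39.6% of 27444 nuclear protein-coding genes. A CRT core (CCGAC, either strand) stood upstream of 26 members (33.3%), against 37.4%. The G-box CACGTG, which PIF and HY5 proteins can bind and which reads the same on both strands, stood upstream of 5 members (6.41%), against 14.8%. Of the 10 members with an interval below 1, 3 had an AuxRE, 5 a CRT core and 2 a G-box. Of the 3 with an interval above 1, 2 had an AuxRE, 1 a CRT core and 0 a G-box. Of the 52 with an interval that included 1, 26 had an AuxRE, 17 a CRT core and 2 a G-box. Sets of 10 and 3 members are too small to tell whether an element goes with a side. A match gives letters only, and neither CBF nor ARF binding was measured in this experiment.

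Many members lie in runs of neighbours on the chromosome. With members joined when they lie within 20 kb of each other, 39 members fell into 9 groups and 39 stood alone. The grouped members together had 2068 reads in *35S:SsCBF1-11* and 2974 in Col-0, a ratio of 0.951 (0.899 to 1.01). The members that stand alone had 1288 and 2135, a ratio of 0.825 (0.769 to 0.884), and 0.818 (0.743 to 0.900) without *SAUR78*. Only 4 members had any stretch of 100 bases that occurs unchanged elsewhere in the genome. These were *SAUR62*, *SAUR63*, *SAUR67* and *SAUR75*, with between 8.57% and 21.6% of their windows of 100 bases. Shorter matches and matches with mismatches were not searched, and how reads were aligned is not stated. Whether reads were shared between similar members, such as neighbours in a group, was therefore not tested.

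The best known group is *SAUR19* to *SAUR24* on chromosome 5, whose products inhibit clade D phosphatases and promote cell expansion. Its 6 members summed to 160 reads in *35S:SsCBF1-11* and 234 in Col-0, a ratio of 0.935 (0.760 to 1.15). *SAUR20* had 59 reads in *35S:SsCBF1-11* and 105 in Col-0 (0.768, 0.549 to 1.07), and its neighbour *SAUR21* had 69 and 79 (1.19, 0.852 to 1.67). The lowest ratio in the group was that of *SAUR22*, with 2 reads in *35S:SsCBF1-11* and 9 in Col-0 (0.304, 0.0320 to 1.47). Thus no interval in this group excluded 1.

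*SAUR61* to *SAUR67* on chromosome 1, a run of 8 genes with *SAUR68*, includes *SAUR63*, which promotes elongation of hypocotyls and stamen filaments. The group had 310 reads in *35S:SsCBF1-11* and 415 in Col-0, a ratio of 1.02 (0.879 to 1.19), and *SAUR63* itself, with the overlap named above, had 81 and 117 (0.947, 0.704 to 1.27). The group of *SAUR26* to *SAUR29*, known for growth at warm temperature, lies on chromosome 3 with *SAUR73* among them, and these 5 genes had 70 reads in *35S:SsCBF1-11* and 91 in Col-0, a ratio of 1.05 (0.759 to 1.45). *SAUR13* to *SAUR16* on chromosome 4, the group with the most reads, had 938 reads in *35S:SsCBF1-11* and 1296 in Col-0, a ratio of 0.990 (0.909 to 1.08). Within it *SAUR14* (1.02, 0.889 to 1.17) and *SAUR16* (0.957, 0.855 to 1.07) were near 1, while *SAUR13* and *SAUR15* had intervals on opposite sides of it.

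The run *SAUR49* to *SAUR5* (chr4:16577180-16599568) was the lowest of the larger groups. Its 7 members had 223 reads in *35S:SsCBF1-11* and 487 in Col-0, a ratio of 0.626 (0.532 to 0.735), and 0.427 (0.261 to 0.677) without *SAUR50*. All 4 members with at least 10 reads had a ratio below 1, and besides *SAUR49* and *SAUR50* these were *SAUR1*, with 5 reads in *35S:SsCBF1-11* and 17 in Col-0 (0.402, 0.116 to 1.14), and *SAUR3*, with 7 and 11 (0.870, 0.286 to 2.46). The pair *SAUR54* and *SAUR53* had 12 reads in *35S:SsCBF1-11* and 43 in Col-0 (0.382, 0.183 to 0.737). This rested on *SAUR54*, since *SAUR53* alone had 7 reads in *35S:SsCBF1-11* and 8 in Col-0 (1.20, 0.369 to 3.78). *SAUR7*, *SAUR6* and *SAUR12* had 322 reads in *35S:SsCBF1-11* and 359 in Col-0 (1.23, 1.05 to 1.43), which rested on *SAUR6*, and without it the ratio was 0.781 (0.395 to 1.495). The pairs *SAUR51* and *SAUR52* (0.832, 0.396 to 1.69) and *SAUR70* and *SAUR76* (0.999) had intervals that included 1.

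**Figure D4:**
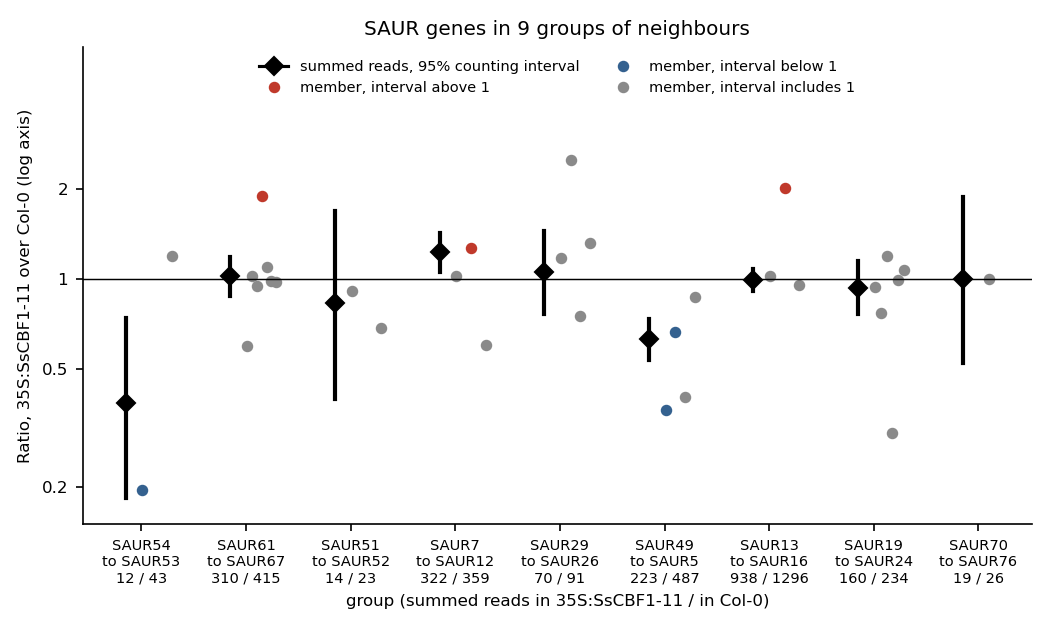
Ratio of 35S:SsCBF1-11 over Col-0, on a log axis, for the 9 groups of neighbouring SAUR genes; diamonds with bars give the ratio of summed reads and its 95% counting interval, points give members with at least 10 reads, coloured by their own interval, and summed reads stand under each group. The SAUR49 to SAUR5 group (0.626) lies below 1 with all its plotted members, and the SAUR19 to SAUR24 (0.935) and SAUR13 to SAUR16 (0.990) groups have intervals that include 1.

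The genes around the SAUR family in the auxin pathway were compared by the same test, list by list. None of the 6 TIR1/AFB receptors, 29 Aux/IAA repressors and 15 ARF factors was called in either direction. The summed ratio was 1.01 (0.945 to 1.07) for the receptors, 1.02 (0.985 to 1.06) for the repressors and 0.864 (0.822 to 0.907) for the ARF factors. The interval lay below 1 for 6 ARF genes and above 1 for 0, where the background for single genes is 13.0% and 7.38%. Of these 6, the intervals of *ARF2*, *ARF8* and *ARF10* ended at 0.980, 0.978 and 0.969. The lists were not matched for reads. No other scaling was run for them, and TMM raises every ratio by a factor of 1.05. Among the Aux/IAA genes the interval lay below 1 for 4 and above 1 for 5. *IAA3*, with 335 reads in *35S:SsCBF1-11* and 307 in Col-0 (1.49, 1.27 to 1.75), passed the threshold of the adjusted p but not that of the fold. So did *IAA27*, with 119 and 276 (0.590, 0.471 to 0.734). Of 8 GH3 genes, whose enzymes conjugate auxin to amino acids, 1 was called lower. This was *GH3.5*, with 33 reads in *35S:SsCBF1-11* and 122 in Col-0 (0.370, 0.244 to 0.547). The summed ratio of the GH3 genes was 0.709 (0.597 to 0.841), but members lay on both sides of 1. *GH3.6* had 92 reads in *35S:SsCBF1-11* and 186 in Col-0 (0.676, 0.521 to 0.873), and *GH3.3* had 38 and 24 (2.17, 1.27 to 3.77). Of 14 TAA and YUC genes of auxin synthesis none was called, and their reads summed to 153 in *35S:SsCBF1-11* and 231 in Col-0. Only *YUC6* among them had an interval that excluded 1, with 26 reads in *35S:SsCBF1-11* and 75 in Col-0 (0.474, 0.291 to 0.749). The counts of genes called in these lists are to be read beside the background of 0.533% and 0.838% of genes called.

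Of the targets of SAUR proteins, 9 clade D phosphatase genes summed to a ratio of 1.02 (0.962 to 1.09). Of the 9, 1 was called higher, where the background was 0.533% of genes tested. This was *AT5G02760*, known as SSPP and as a partner of *SAUR49* in leaf senescence, with 93 reads in *35S:SsCBF1-11* and 59 in Col-0. Its ratio was 2.16 (1.54 to 3.04), with an adjusted p of 7.77e-05 in the exact binomial test. *SAUR49* and the gene of its partner thus differed in opposite directions between these libraries, *SAUR49* without passing the test. Phosphatase genes lay on both sides of 1, and *AT5G66080* had 3 reads in *35S:SsCBF1-11* and 16 in Col-0 (0.256, 0.0479 to 0.896). None of the 11 AHA proton pump genes was called, with a summed ratio of 0.900 (0.871 to 0.931). *AHA1* carried most of these reads, 3546 in *35S:SsCBF1-11* and 5886 in Col-0 (0.824, 0.790 to 0.859), and without it, a choice made after seeing the data, the summed ratio was 1.05 (0.993 to 1.11). Of 9 regulators known to act on SAUR genes (PIF, BZR and HY5) none was called, with a summed ratio of 0.984 (0.939 to 1.03), but members lay on both sides of 1. *HY5* had 87 reads in *35S:SsCBF1-11* and 188 in Col-0 (0.633, 0.485 to 0.820), *PIF1* had 144 and 139 (1.42, 1.11 to 1.80), and *PIF4* had 424 and 477 (1.22, 1.06 to 1.39). The 7 expansin genes of growing leaves, whose proteins loosen acidic walls, had a summed ratio of 1.19 (1.13 to 1.26), with 0 called. The interval lay above 1 for 4 of them and below 1 for 0, where the background is 7.38% and 13.0% of genes. This list was not matched for reads either. *EXPA1*, with the most reads of the list, had 957 in *35S:SsCBF1-11* and 930 in Col-0 (1.41, 1.28 to 1.54).

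**Figure D5:**
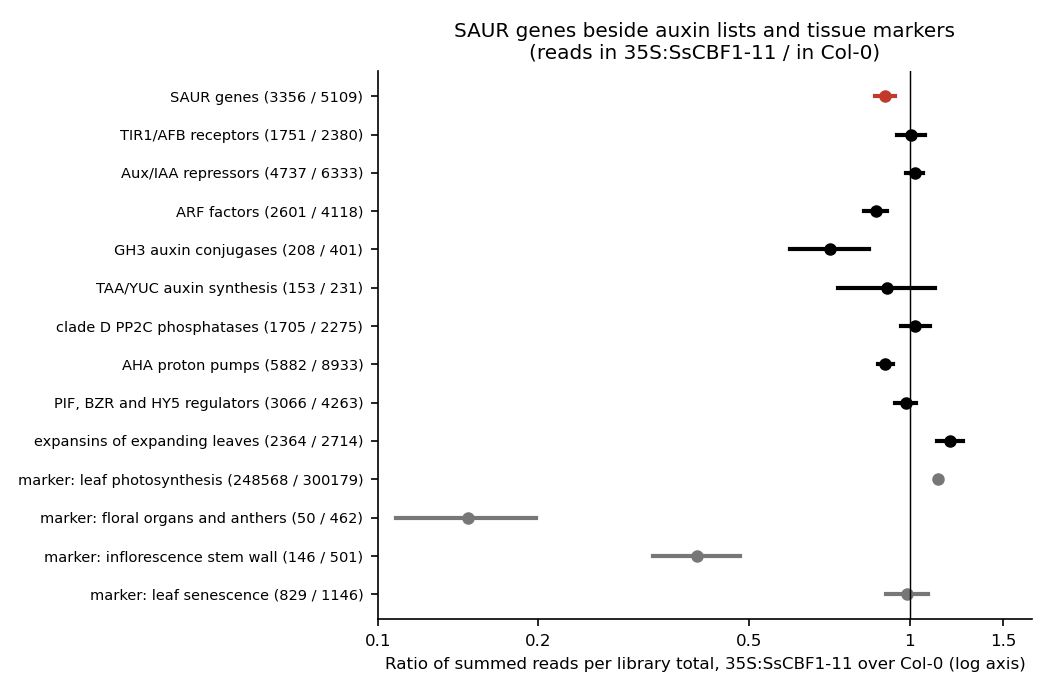
Ratio of summed reads per library total, 35S:SsCBF1-11 over Col-0, on a log axis with 95% counting intervals, for the SAUR genes (red), 9 auxin and growth lists (black) and 4 marker lists (grey); reads stand beside each name. The SAUR sum (0.898) lies between those of the ARF factors (0.864) and the TIR1/AFB receptors (1.01). The markers of floral organs and anthers (0.148) and of the stem wall (0.399) lie far below.

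Marker transcripts of flowers and stems differed between the 2 pools. The 10 markers of floral organs and anthers summed to 50 reads in *35S:SsCBF1-11* and 462 in Col-0 (0.148, 0.108 to 0.198), or 5.67 and 39.1 RPKM. Of them 4 were called lower, *PI*, *GRP17*, *GRP19* and *ATA27*, where the background was 0.838% of genes tested. The anther genes *GRP17*, *GRP19* and *ATA27* carried most of the Col-0 reads. They were at 0 in *35S:SsCBF1-11* and had 123, 63 and 103 reads in Col-0. The intervals of *AG*, *SEP1* and *SEP3* included 1. The 6 markers of the inflorescence stem wall summed to 146 reads in *35S:SsCBF1-11* and 501 in Col-0 (0.399, 0.329 to 0.480), with 3 called lower. The 5 leaf photosynthesis markers were abundant in both libraries, with 248568 reads in *35S:SsCBF1-11* and 300179 in Col-0 (1.13, 1.126 to 1.138). Their intervals lay above 1 for 4 genes and below 1 for 1, with 0 called. The 5 root markers had 1 read in *35S:SsCBF1-11* and 3 in Col-0 in all. In pooled tissue, fewer cells of a type and less RNA per cell cannot be told apart. The part of flowers and stems in the lower counts of *SAUR54*, *SAUR49*, *SAUR33* and the other members with an interval below 1 was not tested.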

How the data were processed

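The data are RNA-seq of 2 libraries, 1 of *35S:SsCBF1-11* and 1 of Col-0, sequenced by the authors on an Illumina HiSeq instrument. The submitters' processing notes name TAIR10 and CASAVA 1.7. How reads were aligned, assigned to genes and treated for strand is not stated in the paper, the labels or the table's header. The authors deposited a count of reads per gene model and an RPKM value, which divides that count by the listed length and the library total. Columns with the authors' own fold, log2 and q-value, and lists of pathways and Gene Ontology terms for called genes, hold their comparison and were not used.

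Counts were used as deposited, with totals of 6669454 and 9120358 reads. A two-sided exact binomial test was run per gene, with Benjamini-Hochberg adjustment over all 22319 genes with reads. This compares 2 libraries and leaves out the variation between plants. Reads from PCR copies are not independent molecules, so intervals cover counting error only. The members and the gene lists were chosen with earlier results of these data known. Named genes are the members with an interval on one side of 1, the 10 highest in RPKM, the best studied groups and the called genes of the auxin lists. Of the genes with the most reads in each auxin list, only *AHA1*, *ARF2*, *EXPA1* and *GH3.6* are named. *SAUR69*, *SAUR1*, *SAUR3*, *SAUR10*, *SAUR28*, *SAUR53*, *NAP*, *SAG13*, *GH3.3*, *GH3.6*, *HY5*, *PIF1*, *PIF4* and the members at 0 were named after their values were seen. The same holds for *ARF2*, *ARF8*, *ARF10*, *IAA3*, *IAA27*, *YUC6*, *AT5G66080*, *EXPA1*, *AG*, *SEP1* and *SEP3*. Gene names, positions and upstream sequence came from RefSeq's TAIR10.1, in which AT1G29490 and AT1G29510 both carry the label *SAUR68* and AT1G29510 is called *SAUR67* here. Alternatives were other scalings (TMM of edgeR, size factors of DESeq2, upper quartile, reduced totals), filters, thresholds and pseudocounts, and the exact test of edgeR under an assumed spread. The software was R 4.3.3 (DESeq2 1.42.0, edgeR 4.0.16) and Python 3.11.15 (scipy 1.17.1, numpy 2.4.6, pandas 2.3.3, matplotlib 3.10.9).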

Additional observations from a re-analysis of the deposited data

How the results depend on the processing

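The count of SAUR genes called lower was 0 with the thresholds used and became 2 with a fold above 1.5 (*SAUR32* and *SAUR50*) and 2 with an adjusted p under 0.05 (*SAUR49* and *SAUR54*), by the construction of the looser thresholds. It stayed at 0, as did the count called higher, under the other scalings, the minimum of 10 reads, the other pseudocounts and the exact test of edgeR, which was given a coefficient of variation between pools of 0.1, 0.2 or 0.4. Over all genes, edgeR called 64 higher and 82 lower at 0.1, 18 and 21 at 0.2, and 2 and 0 at 0.4. A fold above 1.5 gave 232 and 409 over all genes, and an adjusted p under 0.05 gave 189 and 413. The median log2 ratio of the members was -0.0022 with TMM and 0.0036 with DESeq2's size factors, where the median of all genes also moved, to -0.0053 and 0.00049. The sum over all members had a ratio of 0.941 with TMM, 0.945 with DESeq2's size factors and 0.825 without members in tandem groups. The ratio of the *SAUR54* and *SAUR53* pair turned to 1.20 without *SAUR54*, and that of *SAUR7* to *SAUR12* to 0.781 without *SAUR6*. Intervals below 1 were 9 in place of 10 with TMM, DESeq2's size factors and the upper quartile, without *SAUR59*, and those above 1 were 3 under every scaling. Over all genes the shares below and above 1 were 9.89% and 10.1% with TMM, 9.66% and 10.4% with DESeq2's size factors, and 10.8% and 9.20% with the upper quartile, in place of 13.0% and 7.38%. The summed ratio of the AHA genes turned to 1.05 without *AHA1*, an alternative chosen after seeing the data. With TMM, *SAUR32* had an adjusted p of 0.0040 in the exact binomial test. No paired analysis was possible because each genotype has 1 library, and no replicate could be left out. At these depths, members with few reads could show large differences only.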

Other observations

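The RefSeq annotation gives SAUR names to further loci whose descriptions in the deposited table did not match the rule. *SAUR79* (AT2G35290) had 0 reads in *35S:SsCBF1-11* and 3 in Col-0. AT5G01830, an ARM repeat protein gene that also carries the symbol *SAUR21*, had 10 reads in *35S:SsCBF1-11* and 14 in Col-0 (ratio 0.977, 0.388 to 2.36). Neither was counted among the members.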
